A study of Caenorhabditis elegans with 4 samples.

Results

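Peaks of the tagged protein R02D3.7 (gene rcat-1) that lay close together along the worm genome were examined as clusters. The combined list of 2590 ChIP-seq peaks was sorted by position, and successive peaks of a chromosome were joined when the next one started at most 2000 bp after the furthest end so far. Runs of 3 or more peaks were called clusters, and 324 of the 2590 peaks (12.5%) lay in 98 of them. A further 568 peaks lay in 284 runs of 2, and 1698 peaks were isolated. All positions are on WormBase WS190.

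The protein was mapped in Caenorhabditis elegans hermaphrodites at the fourth larval stage, L4, grown at 20 °C. The strain, OP218, carries the unc-119(ed3) mutation and the transgene wgIs218, which adds a copy of R02D3.7 with TY1, EGFP and FLAG tags together with an unc-119 gene. It was made by bombardment, and the labels state that the fusion follows the expression pattern of R02D3.7. The 4 libraries, all of this one strain and stage, came from material fixed with 2% formaldehyde. They were 2 ChIP libraries made with antibodies against GFP and 2 input libraries kept from the fixed extract before the precipitation. Lists of the 2 ChIP libraries (1251 peaks in replicate 1, 810 in replicate 2) and the combined list were analysed, the input libraries were not analysed here, and the read depth behind the peaks is unknown.

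ChIP-seq enriches DNA fragments crosslinked to a protein, and a peak caller lists stretches where the ChIP library exceeds its control. Sites of a transcription factor are often grouped, because regulatory regions hold several short binding motifs and because neighbouring promoters lie close together in the compact worm genome. A caller can also list a single broad bound region as several peaks where the read density dips. Peak lists alone do not tell these situations apart, and which of them applied was not tested. The strength of a peak is given below as -log10 of the q-value that the authors' caller gave it, that is, its p-value corrected for multiple testing.

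The members were chosen by their positions in the combined list, and their q-values and widths come from the same peak call. The ChIP libraries behind the replicate lists also entered the combined list, and peaks of a cluster share their surroundings. For these reasons the values below are descriptions with no test, and shares carry Wilson 95% intervals that cover counting error only. A difference between clustered and isolated peaks is therefore not shown to be particular to clusters.

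Most clusters were small and short. Of the 98 clusters, 77 held 3 peaks, 17 held 4, 2 held 5, 1 held 6 and 1 held 9. Cluster length, from the first start to the last end, had a median of 2836 bp and ranged from 740 to 8813 bp. Clusters of 3 had a median length of 2658 bp and clusters of 4 a median of 4061 bp. Peaks covered a median of 41.5% of the cluster length, between 7.85% and 87.7%, so that in most clusters the greater part of the sequence lay between peaks.

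Gaps within clusters were concentrated at the short end. The 226 gaps had a median of 600.5 bp and ranged from 201 to 1972 bp. From 200 to under 300 bp there were 47 gaps (20.8%) and from 300 to under 500 bp there were 52 (23.0%), while the range from 1500 to under 2000 bp held 29 (12.8%). No gap was under 200 bp. The smallest gap between any successive peaks was 200 bp both in replicate 1 and in the combined list and 206 bp in replicate 2, and no peaks of the combined list overlapped each other. Gaps within runs of 2 had a median of 716 bp, with 16.5% from 200 to under 300 bp. The joining distance bounds all of these gaps from above. By comparison, the nearest peak to an isolated one lay at a median of 11977 bp.

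**Figure D1:**
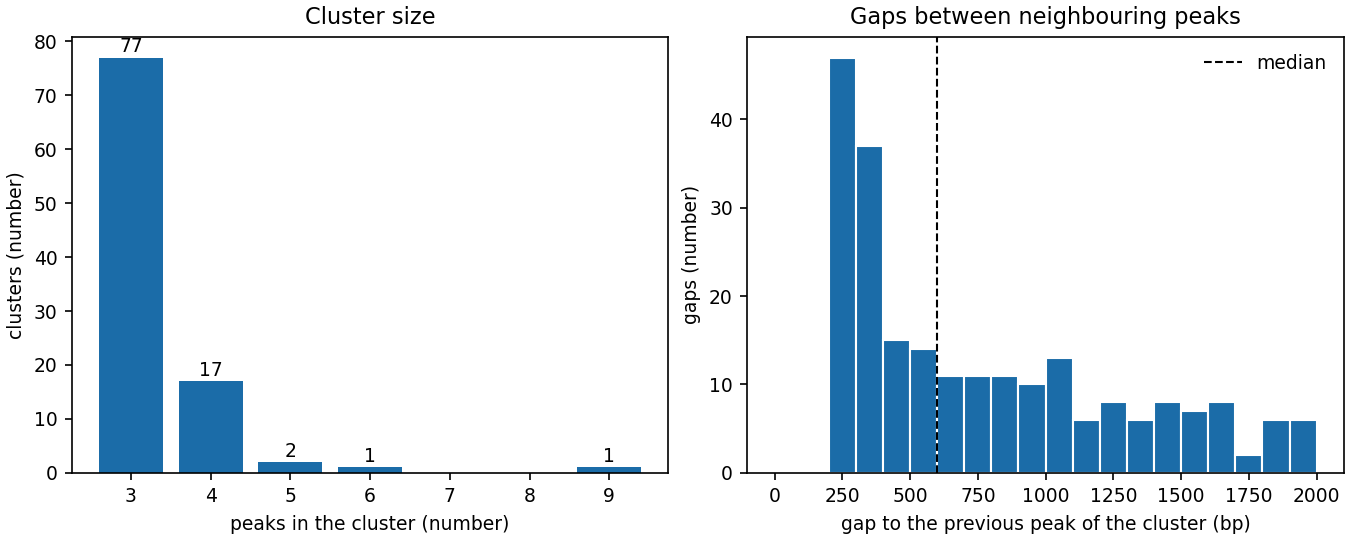
Number of clusters by the number of peaks they hold (left) and number of gaps by length in bp (right, bins of 100 bp, dashed line at the median). Clusters of 3 make up 77 of 98, and no gap is shorter than 200 bp although many lie just above that length.

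The joining distance divided peaks with similar spacing and strength. Just inside it, peaks on chromosome I at 11577048 to 11577633 and 11579610 to 11579788 had a gap of 1976 bp and formed a run of 2. Other gaps just inside, of 1972 and 1968 bp, lay within a cluster of 3 and a cluster of 4 on the same chromosome. Just outside it, gaps of 2008, 2014 and 2014 bp left their peaks in separate runs. The peaks on either side of these 6 gaps had a -log10 q between 2.08 and 6.75.

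The largest cluster lay on chromosome V at 6220973 to 6229785 and held 9 peaks over 8813 bp. Its strength was spread over several members rather than carried by a single peak. The peak at 6224136 to 6225255 had a -log10 q of 14.8, the one at 6227037 to 6228020 of 11.4 and the one at 6228328 to 6228940 of 10.8. The other 6 members lay between 2.33 and 5.71. Gaps from the third peak to the ninth were short, from 201 to 607 bp, whereas the first peak stood 1652 bp from the second. Both replicates listed 3 of the 9 peaks, replicate 1 listed 2 more, replicate 2 listed 1 more, and 3 were in neither list. Within the second peak by position, the peaks of replicate 1 (6222939 to 6223198) and replicate 2 (6222770 to 6222905) did not overlap each other. The cluster was overlapped by 6 peaks of replicate 1 and 5 of replicate 2, none of them above a -log10 q of 6.17. Many of its members were therefore found in a single library only at modest strength.

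The second largest cluster, on chromosome II at 10541832 to 10549472, had 6 peaks over 7641 bp and a different shape. Its first peak, at 10541832 to 10544276, was 2445 bp wide and reached a -log10 q of 116.58, rank 20 of the combined list. This width was the largest of any clustered peak. Each replicate broke the region of that single combined peak into 3 peaks, with the best partner by overlap at 63.1 in replicate 1 and 37.3 in replicate 2. Of the 5 other members, the peak at 10547960 to 10548541 was also in both lists, with a -log10 q of 6.33 in replicate 1, 5.56 in replicate 2 and 10.2 in the combined list. The remaining 4 lay between 2.64 and 6.44, and one of them, at 10545816 to 10545822, was 7 bp wide.

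The clusters of 5 peaks differed in strength. On chromosome V at 6097723 to 6101328, the peak at 6098753 to 6099563 had a -log10 q of 14.9 and was in both replicates, and the other 4 lay between 2.08 and 3.56. On chromosome III at 7178766 to 7184177, the strongest member, at 7179640 to 7179890, reached 5.60 in replicate 1, 2.32 in replicate 2 and 4.91 in the combined list. Replicate 1 thus gave this peak a smaller q-value than the combined list did.

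Clusters with most support in single libraries were few. In 5 of the 98 clusters, 3 peaks overlapped a peak of both replicates, and in 2 of these every member did. On chromosome III at 3866774 to 3869734, the first of 3 peaks had a -log10 q of 31.0 in replicate 1, 17.6 in replicate 2 and 48.8 in the combined list. The last peak had 2.84, 4.35 and 9.57, and the middle one 2.47, 2.26 and 5.11. The order of the outer and middle peaks was thus the same in all 3 lists. On chromosome IV at 17278103 to 17281571, 3 peaks of 443 to 1392 bp were separated by only 204 and 224 bp and covered 87.7% of the cluster, the highest coverage among the 98. Their -log10 q in order of position was 8.86, 3.06 and 3.39 in replicate 1, 3.36, 2.15 and 2.53 in replicate 2, and 16.4, 11.5 and 5.59 in the combined list. Within the middle peak the replicates listed separate stretches, at 17280450 to 17280839 in replicate 1 and 17279935 to 17280111 in replicate 2. The first peak was the strongest in every list, while the other two changed places between the combined list and the replicates.

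A cluster of 4 on chromosome I and another on chromosome III had 3 of their 4 peaks in both replicates and the other in replicate 1 alone. The one on chromosome I at 10564937 to 10570504 had a -log10 q of 9.32, 33.2, 10.8 and 11.0 at its 4 peaks in order of position (combined list). In replicate 1 these peaks had 2.70, 17.2, 4.62 and 3.74, and in replicate 2 the last 3 had 6.99, 2.81 and 3.55, the first being absent. The second peak led in each list. On chromosome III at 6967909 to 6972203 the first peak was strongest in each list, with 17.3 in replicate 1, 13.9 in replicate 2 and 30.2 in the combined list. The following peaks had 18.0, 4.37 and 9.58 in the combined list, and only the weakest of them was missing from replicate 2.

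**Figure D2:**
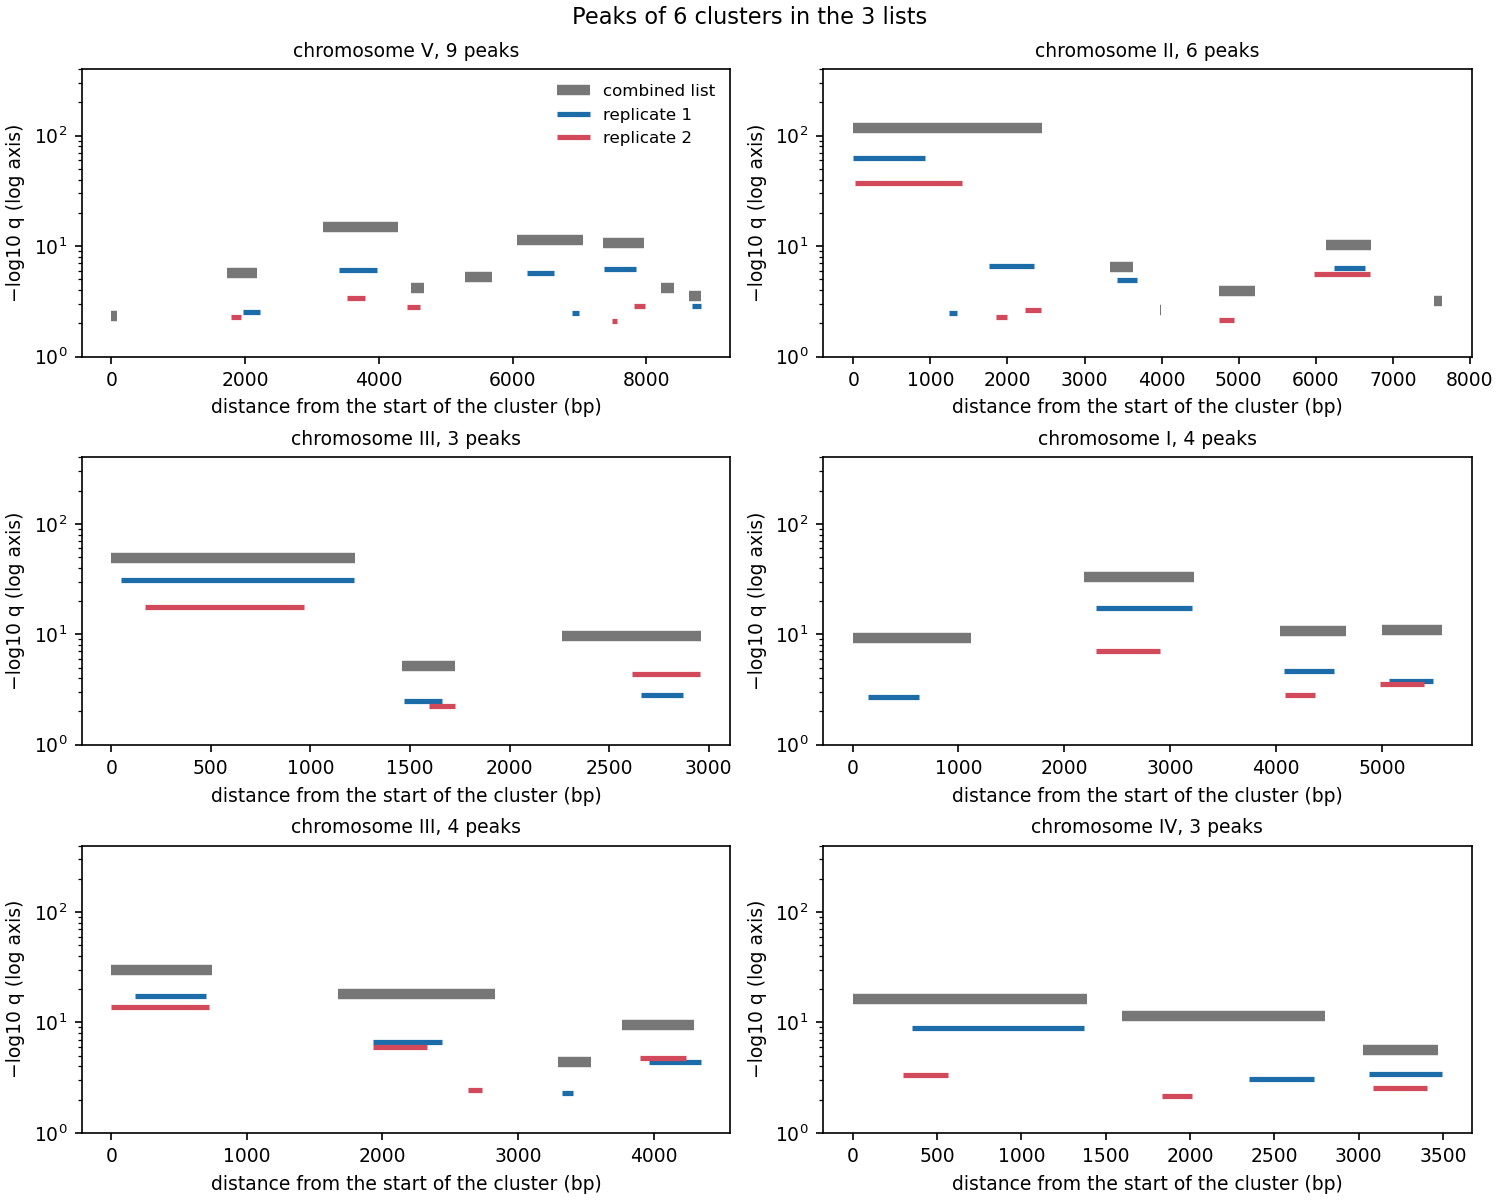
Peaks of 6 clusters by distance from the start of the cluster in bp, with -log10 q on a log axis; each line spans a peak of the combined list (grey), replicate 1 (blue) or replicate 2 (red). The 9-peak cluster on chromosome V has several members of similar strength, and the 6-peak cluster on chromosome II starts with a wide peak of -log10 q 116.58 that each replicate lists as 3 peaks.

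The strongest peak of the whole combined list was a cluster member. This peak, on chromosome IV at 4748407 to 4750780, had a -log10 q of 175.6 in replicate 1, 114.1 in replicate 2 and 249.99 in the combined list. Its neighbours were far weaker. The peak at 4747653 to 4747984, 422 bp before it, had 3.91 in the combined list and 2.69 in replicate 1 and was not in replicate 2. The first member, at 4746018 to 4746158, had 2.09 and was in neither replicate. The same imbalance was seen on chromosome III at 8355200 to 8359041, where a peak of 189.5, rank 8, followed members of 9.15 and 2.63. On chromosome V at 3757059 to 3760308, a peak of 93.6 followed members of 2.44 and 2.26 that were 45 and 14 bp wide and in neither replicate. A further example on this chromosome, at 15082510 to 15086189, had a last peak of 79.9 after members of 2.12 and 2.79.

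Other clusters led by a strong peak had a second strong member. On chromosome IV at 8375140 to 8380109, the outer peaks had a -log10 q of 23.0 and 71.7 in replicate 1, 11.7 and 38.0 in replicate 2, and 35.9 and 107.9 in the combined list. The middle peak had 5.20 and was missing from replicate 2. Also on chromosome IV, at 1052449 to 1056968, neighbouring peaks 560 bp apart had 38.3 and 30.4 in replicate 1, 23.4 and 12.4 in replicate 2, and 64.4 and 41.2 in the combined list. This cluster was picked after its values were seen. On chromosome II at 10868759 to 10873169, a first peak of 13.6 and a last peak of 123.4, both in both replicates, stood on either side of an 84 bp peak of 3.19 in neither. At 12816182 to 12821644 on chromosome III, peaks of 43.6 and 16.6 alternated with peaks of 2.79 and 4.42. The stronger peaks were in both replicates and the weaker ones in neither.

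A single strong peak stood out in 3 further clusters. On chromosome IV at 4445308 to 4447649 a first peak of 103.8 was followed by peaks of 4.38 and 4.08. On chromosome I at 1154077 to 1157748 a last peak of 88.4 followed peaks of 4.54 and 2.08, the latter 6 bp wide. On chromosome III at 9404366 to 9408472 the third of 4 peaks reached 79.0, and the others lay between 3.07 and 6.43. All of its 4 peaks were in replicate 1, and the last 2 were also in replicate 2.

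None of the 5 shortest clusters held a peak with a -log10 q above 6.14. The shortest of all, on chromosome IV at 878631 to 879370, fitted 3 peaks of 27, 183 and 2 bp into 740 bp. Its middle peak had a -log10 q of 2.48 in replicate 1, 2.26 in replicate 2 and 4.33 in the combined list, and the outer ones were in neither. In a cluster on chromosome III, at 10710927 to 10712043, the first and second peaks, with 3.86 and 3.43, both overlapped 1 peak of replicate 1 (3.61). That replicate peak, at 10711012 to 10711333, touched them only at its ends and lay mostly in the 306 bp gap between them. The last peak of the cluster had 6.14 and was in both replicates. On chromosome V at 6277130 to 6278417, peaks of 151, 420 and 267 bp had a -log10 q of 3.19, 5.92 and 3.78. None of these was in replicate 1, and the last 2 were in replicate 2. The other short clusters, on chromosome I at 14468283 to 14469476 and on chromosome V at 3584953 to 3586210, reached at most 5.22 and 3.95.

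Long clusters could be weak as well. On chromosome III at 13719211 to 13724148, 4 peaks of 16 to 368 bp were spread over 4938 bp at nearly even gaps of 1399, 1441 and 1471 bp, with a -log10 q of 2.16 to 3.697. Elsewhere on the same chromosome, a cluster at 5502291 to 5506508 had 4 peaks of 2.03 to 5.55, of which 2 were in replicate 1 and none in replicate 2. On chromosome V at 4731123 to 4736072, 4 peaks had, in order of position, 5.38, 4.30, 2.48 and 2.06, and the first alone was in the replicates. In 4 clusters no member was in either replicate, and the strongest of their members had a -log10 q of 3.85. One of these, on chromosome IV at 11601100 to 11605257, held 4 peaks of at most 2.79.

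Within clusters, the lead of the strongest member over the others varied widely. The strongest members had a median -log10 q of 8.25 (2.79 to 249.99, n = 98), the second strongest 3.96 (2.27 to 41.2, n = 98) and the others 2.64 (2.00 to 10.8, n = 128). This order is set by the ranking itself, and so is part of the size of the steps. No other sets of peaks were ranked in this way, so the steps are not shown to be particular to clusters. The strongest value exceeded the second by a median factor of 1.74, with a lower quartile of 1.28 and a highest factor of 64.0. Widths followed, with medians of 494.5, 259 and 128.5 bp. Across the 324 clustered peaks, which share libraries and surroundings, wider peaks were stronger, with a Spearman's rho of 0.87, and rho was 0.79 across the 1698 isolated peaks.

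Support by single libraries fell in the same order. Both ChIP libraries entered the combined q-values that set the ranking, so this order is in part built in. In isolated peaks too, the share in both rose with strength, from 0.448% at a -log10 q of 2 to under 3 to 95.2% at 10 or more. The steps in support are therefore not shown to be particular to clusters. Among the strongest members, 53 of 98 (54.1%, interval 44.2 to 63.6) overlapped a peak of both replicates and 5 (5.10%) a peak of neither. Among the second strongest, 19 (19.4%, 12.8 to 28.3) were in both and 39 (39.8%) in neither. Of the other members, 9 of 128 (7.03%, 3.74 to 12.8) were in both and 94 (73.4%) in neither. In the clusters of 3, the strongest peak came first by position in 22, in the middle in 20 and last in 35 of 77. Where at least 2 members had separate partners in a replicate, the strongest combined member was also the strongest there in 45 of 54 clusters for replicate 1 and 22 of 28 for replicate 2. The combined list includes these libraries, so agreement with it is in part built in. Of the 20 clusters with at least 2 members in both lists, 18 had the same leading member in both replicates. In 15 of these 20 only 2 members were in both, so the same leader would often occur under a random order. The number to be met under a random order was not computed, so these counts are not shown to be high.

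**Figure D3:**
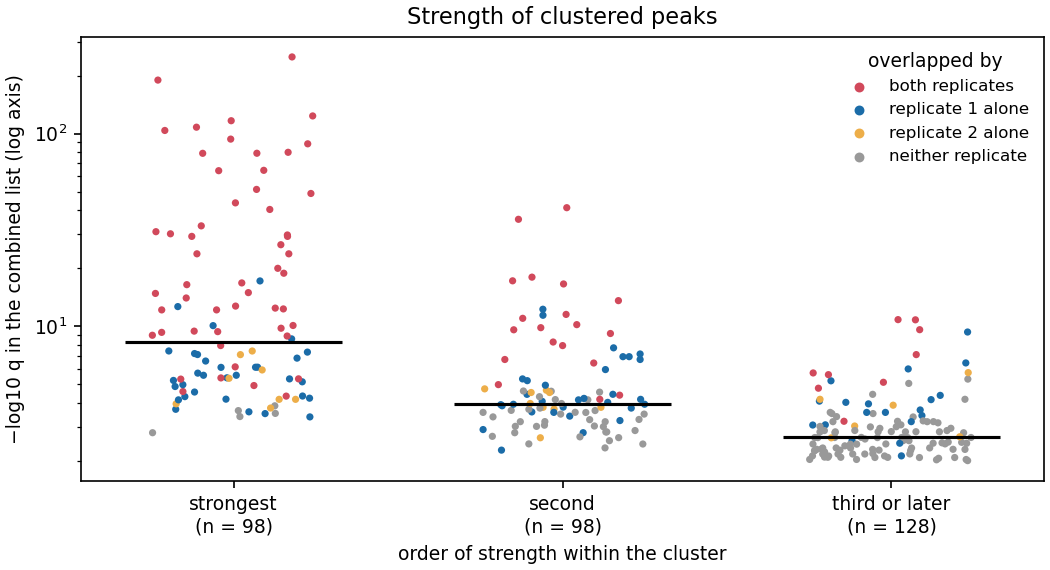
Strength (-log10 q, log axis) of the 324 clustered peaks by their order of strength within the cluster; colours give the replicate lists that overlap each peak and lines are medians. Medians step down from 8.25 to 3.96 and 2.64, and peaks in neither replicate mostly rank below the second place of their cluster.

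A q-value under 1e-10 was given to 55 of the 324 clustered peaks (17.0%, interval 13.3 to 21.4), to 18.8% of peaks in runs of 2 and to 12.3% of isolated peaks (10.8 to 13.96), against 14.3% of all combined peaks. These strong peaks sat in 42 of the 98 clusters. A single strong member was present in 31 clusters, 2 in 9 clusters and 3 in 2 clusters, which were the 9-peak cluster on chromosome V and the 4-peak cluster on chromosome I. The other 56 clusters, with 180 of the 324 peaks, had no member this strong. Clusters held 15 of the 100 strongest combined peaks, runs of 2 held 35 and isolated peaks 50. Their shares of the whole list were 12.5%, 21.9% and 65.6%, so the number in clusters was close to the background. The median -log10 q was 3.93 among clustered peaks, 3.78 in runs of 2 and 3.38 among isolated peaks. Median widths were 237, 225.5 and 190 bp, and peaks under 50 bp made up 11.7% of clustered peaks (8.67 to 15.7) and 17.7% of isolated ones (15.98 to 19.6), against 16% of all combined peaks.

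Of the clustered peaks, 163 (50.3%, interval 44.9 to 55.7) overlapped a peak of replicate 1 by at least 1 bp, against 44.6% of all combined peaks and 42.7% of isolated ones (40.4 to 45.1). For replicate 2 the number was 104 (32.1%, 27.3 to 37.4), against 28.4% of all and 26.9% of isolated peaks (24.9 to 29.1). Both replicates held 81 clustered peaks (25%, 20.6 to 29.99), against 21.2% of all and 19.7% of isolated peaks (17.8 to 21.6). Within 76 of these 81 the peaks of the replicates also overlapped each other, and within 5 they touched separate stretches of one combined peak (6.17%, against 4.19% of the isolated peaks held by both). Neither replicate held 138 (42.6%, 37.3 to 48.03), against 48.3% of all and 50.1% of isolated peaks (47.7 to 52.4). Runs of 2 lay between, with 23.6% in both and 46.1% in neither. The clustered share in both lists was close to the background, and with an overlap of at least 50% of the combined peak it was 10.8%, below the 11.7% of isolated peaks.

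At like strength, clustered and isolated peaks had overlapping intervals. For a -log10 q of 10 or more, 50 of 55 clustered peaks (90.9%, interval 80.4 to 96.1) and 199 of 209 isolated peaks (95.2%, 91.4 to 97.4) were in both replicates, and all of both groups were in replicate 1. From 5 to under 10 the shares in both were 39.0% of 59 clustered (27.6 to 51.7) and 43.4% of 258 isolated peaks (37.5 to 49.5). From 3 to under 5 they were 7.08% of 113 (3.63 to 13.4) and 3.57% of 561 (2.32 to 5.44). From 2 to under 3 none of 97 clustered peaks and 3 of 670 isolated peaks were in both, and 90.7% (83.3 to 95.04) and 84.6% (81.7 to 87.2) were in neither. No consistent direction ran through the 4 ranges.

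**Figure D4:**
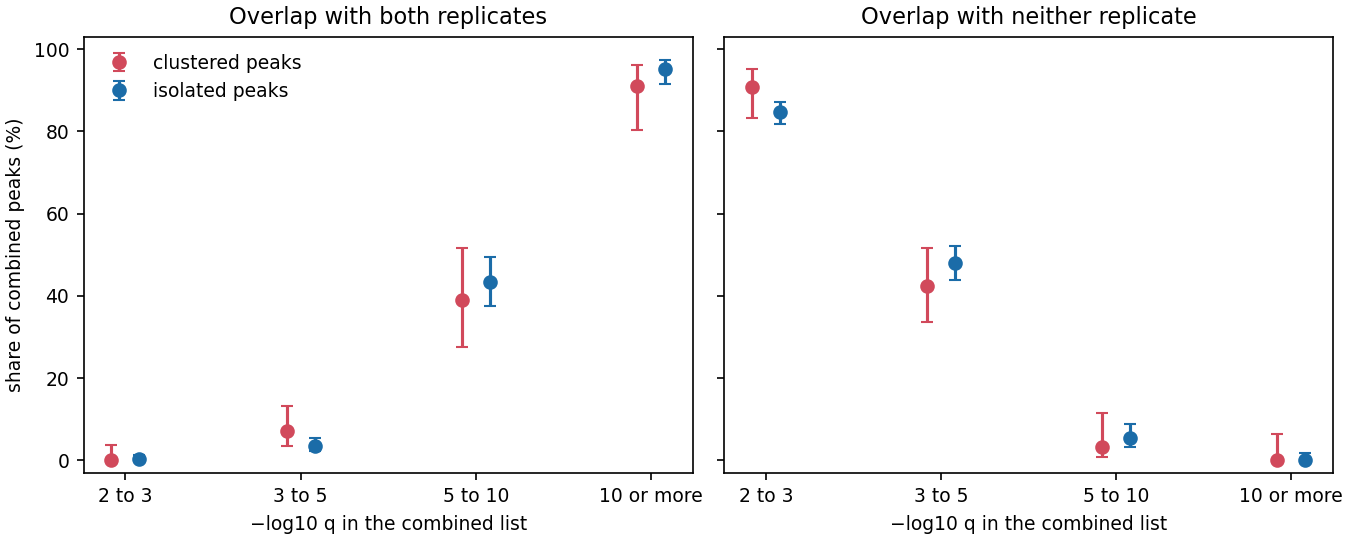
Share in percent of clustered (red) and isolated (blue) combined peaks that overlap a peak of both replicates (left) or of neither (right), by range of -log10 q; bars are Wilson 95% intervals. Clustered and isolated shares track each other, from 0% and 0.448% in both replicates at the weak end to 90.9% and 95.2% at the strong end.

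By cluster, 56 of 98 (57.1%) had at least 1 member in both replicates, against 21.2% of single peaks in the whole combined list. A cluster has 3 or more peaks that can meet this, so its share is not shown to exceed the background. A member in both was found for 40 of the 42 clusters with a q-value under 1e-10 and for 16 of the other 56. Of isolated peaks with a -log10 q of 10 or more, 95.2% were in both, so this split is not shown to be particular to clusters. The exceptions among the strong clusters were both on chromosome V and were named after their values were seen. At 10965542 to 10969382 the last of 4 peaks had a -log10 q of 17.2 in the combined list and 12.3 in replicate 1 and was missing from replicate 2. At 19049172 to 19051210 the first of 3 peaks had 10.1 and 6.27 and was likewise missing. In 18 clusters every member was in at least 1 replicate. Replicate 1 overlapped member peaks of 88 clusters, 55 of them with 2 or more of its peaks and 16 with 3 or more. Counting its peaks anywhere between the first start and the last end, gaps included, these numbers were 89, 55 and 17. Replicate 2 overlapped member peaks of 67 clusters, 33 with 2 or more peaks and 10 with 3 or more, and its numbers were the same with gaps included.

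The joining rule found fewer clusters in the single lists. In replicate 1, 79 of 1251 peaks (6.31%) lay in 24 runs of 3 or 4, and in replicate 2, 52 of 810 (6.42%) lay in 17 such runs, against 12.5% in the combined list. A shorter list has its peaks further apart, so these shares cannot be read against each other as a difference in binding. Of the 24 runs of replicate 1, 17 overlapped a combined cluster, and of the 17 of replicate 2, 11 did. The lists shared 8 places, 33.3% of the runs of replicate 1 and 47.1% of those of replicate 2, and 6 of the 8 overlapped a combined cluster. Besides 5 named above, on chromosomes I at 10564937, II at 10541832, III at 3866774 and 6967909 and IV at 17278103, these included the cluster on X at 8154374 to 8156697, whose peaks had a -log10 q of 5.94, 7.92 and 3.20. All 3 were in replicate 1, through peaks of only 44, 7 and 12 bp with a -log10 q of 2.12, 2.58 and 2.11. The last 2 were in replicate 2, through 3 peaks with a -log10 q of at most 2.43. All of these replicate peaks lay near the q-value limit of the lists.

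Some places with 3 or more peaks in a replicate were not clusters in the combined list. The 7 such runs of replicate 1 overlapped 1 or 2 combined peaks each, as did the 6 of replicate 2. In both replicates this applied to a region on chromosome IV at 11520739 to 11524606 (coordinates of replicate 1) and another on chromosome V at 14685865 to 14688639. The first overlapped 2 combined peaks for replicate 1 and 1 for replicate 2, and the second overlapped 2 for either. The reverse was more frequent, since 81 of the 98 combined clusters were overlapped by no such run of replicate 1 and 87 by none of replicate 2. At the level of single peaks, 2 of replicate 1 and 1 of replicate 2 overlapped 2 or more clustered peaks.

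Clusters were found on all 6 chromosomes. Chromosomes III and V held 22 clusters each, IV 18, I 17, II 10 and X 9. As a share of the combined peaks of the chromosome, clustered peaks were highest on V, at 78 of 469 (16.6%, interval 13.5 to 20.3), followed by IV (14.1%, 10.997 to 17.8), III (13.9%, 11.2 to 17.2) and I (11.9%, 9.24 to 15.3). They were lowest on II (8.77%, 6.37 to 11.96) and X (8.15%, 5.73 to 11.5). Intervals of neighbours in this order overlapped, and those of V did not overlap those of II or X. Clustered peaks come in groups by the rule, so these intervals over peaks are too narrow. A difference between chromosomes was not tested. Combined peaks of any kind numbered 38.1 per Mb on III, 29.5 on I, 26.2 on II, 22.8 on IV, 22.5 on V and 20.1 on X. Clusters, in the same order of chromosomes, numbered 1.60, 1.13, 0.66, 1.03, 1.06 and 0.51 per Mb. A relation between peak density and clustered share was not tested.

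The 9 clusters on X were also short, and their highest peak strength was low. Typical strength of clusters was not compared between chromosomes, so clusters on X are not shown to be weaker as a whole. The longest measured 2489 bp, against longest clusters of 4970 to 8813 bp on the autosomes, and the median length was 1989 bp, against 2611 to 3136 bp. A single cluster on X, at 6252612 to 6254244, had a peak with a q-value under 1e-10, and its -log10 q of 12.1 was the highest of the 29 clustered peaks there. On the autosomes the highest value was 88.4 on I and 93.6 to 249.99 on the others. On chromosome II, 2 of the 10 clusters held a q-value under 1e-10, and they were the ones described above at 10541832 and 10868759. The strength of isolated peaks was not broken down by chromosome. The low highest value on X and the few strong clusters on II are therefore not shown to be particular to clusters. The share of clustered peaks in both replicates was 17.1% on II and 17.2% on X, and 22.6% to 32.1% on the other chromosomes. Isolated peaks had 23.3% on II, above the clustered peaks there, 17.9% on X and 15.3% to 21.3% on the others.

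Clustered peaks were more often central than isolated ones when each peak was counted, and less clearly so by cluster. The central 50% of the chromosome spans held 210 of the 324 clustered peaks (64.8%, interval 59.5 to 69.8), against 56.4% of all combined peaks, 55.1% of peaks in runs of 2 and 55.2% of isolated ones (52.9 to 57.6). With the cluster as the unit, 62 of 98 (63.3%, interval 53.4 to 72.1) were central, an interval that includes the share of isolated peaks. Members of a cluster share a position, so the interval over peaks is too narrow. By chromosome the clustered share ranged from 55.4% on IV to 72.6% on III (61.4 to 81.5), where 55.8% of isolated peaks were central (50.3 to 61.1). On V the shares were 64.1% of clustered and 64.8% of isolated peaks. The intervals of clustered and isolated peaks met on all chromosomes except III.

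**Figure D5:**
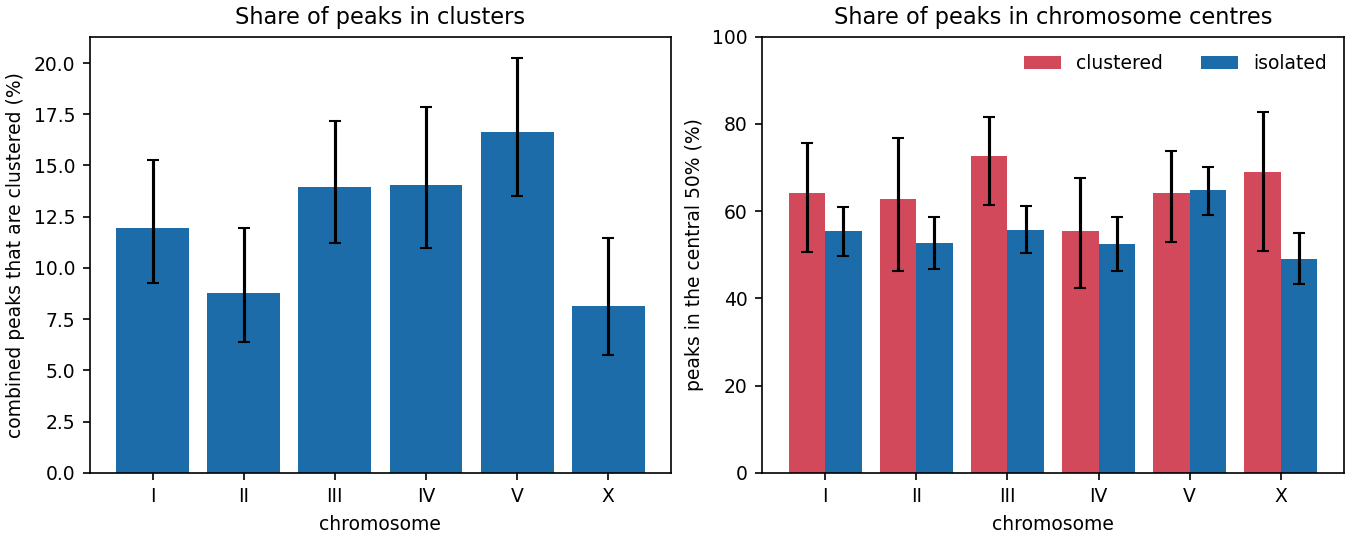
Share in percent of the combined peaks of each chromosome that lie in clusters (left) and share of clustered and isolated peaks in the central 50% of the chromosome span (right), with Wilson 95% intervals. Chromosome V has the highest clustered share (16.6%) and X the lowest (8.15%), and chromosome III has the highest central share of clustered peaks (72.6%).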

How the data were processed

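Per the file headers, coordinates are on WormBase WS190, and the peak records name PeakSeq as the caller. The authors deposited a q-value for each peak, all under 0.01. Not given in the sources used here were the aligner, the controls and how the replicates were merged. The lists hold no read counts or summits. Starts and ends were taken as 1-based inclusive.

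Runs, overlaps and intervals were computed with Python 3.11.15, pandas 2.3.3 and scipy 1.17.1, and the joining and overlap steps were tested on simulated lists. Each replicate partner is the peak of largest overlap. Each chromosome span starts at base 1 and ends with its last listed peak. Replicates are the labels' ChIP libraries 1 and 2, which may be technical. The members and lists were chosen with earlier results of these data known. Named clusters were those with the most peaks (10), the smallest q-value (10), the greatest (5) or least (5) length, and 3 or more members in both replicates. The RefSeq gene table is on another build (WBcel235) and gave only the name rcat-1, so no gene or sequence was assigned to a cluster. Alternatives varied the joining distance, q-value and width limits, overlap and replicate used.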

Additional observations from a re-analysis of the deposited data

How the results depend on the processing

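Of 110 alternative values, 50 lay inside the reported interval or within 1.5 times a reported count, and no cause of a shift was tested unless the setting itself removes peaks or widens the rule. At a joining distance of 1000 bp, 159 peaks lay in 48 clusters with a median length of 2037 bp and a median gap of 352 bp, 38.4% were in replicate 2 and 35.8% in neither list, and the rule took 44 peaks of replicate 1 and 21 of replicate 2. At 4000 bp, 582 peaks lay in 165 clusters with medians of 4175 bp and 1063 bp, and 137 and 79 peaks of the replicates were taken. With combined peaks of q under 0.001, 116 peaks formed 35 clusters with a median gap of 451 bp. Of these peaks 70.7% were in replicate 1, 50% in replicate 2, 40.5% in both, 19.8% in neither and 73.3% in chromosome centres, and 71.4% of clusters had a member in both. Isolated peaks were then 32.4% in both and 27.5% in neither. Median -log10 q was 5.26 in clusters and 4.64 outside, and median width 363 and 292 bp. Without combined peaks under 50 bp, 36.9% of clustered peaks were in neither, and isolated peaks had 23.9% in both, 41.7% in neither, a median -log10 q of 3.76 and a median width of 218.5 bp. With an overlap of at least 50% of the combined peak, clustered peaks had 38.6% in replicate 1, 17.0% in replicate 2, 10.8% in both and 55.2% in neither, isolated peaks 11.7% in both and 58.4% in neither, and 28.6% of clusters a member in both. With replicate peaks of q under 0.001, these were 32.1%, 17.3%, 14.2%, 64.8%, 12.1%, 73.0% and 36.7%, and the rule took 27 peaks of replicate 1 and 12 of replicate 2. With 1 replicate left out, so that support means the other list, 32.1% to 50.3% of clustered peaks were supported and 49.7% to 67.9% not, against 26.9% to 42.7% and 57.3% to 73.1% of isolated peaks, and 68.4% to 89.8% of clusters had a supported member. The share in both replicates was higher for clustered than isolated peaks in 8 of 9 settings, all but the 50% overlap, and the share in neither was lower in all 9. These 9 include the settings with 1 replicate left out, where the share is that of the remaining list alone. They also reuse the same peaks, so they are not separate results, and at like strength no consistent direction was seen. Removing peaks over 10000 bp left the counts within these limits, and no clustered peak was that wide. No paired analysis was possible because only the ChIP libraries gave values. Unknown depth limits all shares, since a weak peak may miss the q-value limit of a list.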

Other observations

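Some clusters lay near each other, and the regions given here were picked after their values were seen. The 92 distances between successive clusters of a chromosome had a median of 533 kb and ranged from 2.46 kb to 5024 kb, and 7 were under 50 kb. The closest clusters, on chromosome III at 8794733 to 8797539 and 8800004 to 8802116, were separated by 2464 bp, just over the joining distance. On chromosome I, the cluster at 10551555 to 10554148 preceded the well supported one at 10564937 by 10.8 kb. On chromosome V, the 9-peak cluster at 6220973 to 6229785 was followed by the short cluster at 6277130 after 47.3 kb.

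Some replicate peaks missing from the combined list lay near clusters. Of the 74 peaks of replicate 1 with no combined peak, 3 (4.05%) lay at most 2000 bp from a cluster, as did 2 of the 42 (4.76%) of replicate 2. The share of the genome this close to a cluster was not computed, so these counts cannot be called low or high.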
